A study of Acipenser schrenckii with 2 samples.

Results

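The cluster of miR-183, miR-96 and miR-182 is a group of microRNAs (miRNAs, small RNAs that dampen translation and stability of mRNAs they pair with), here read by 12 of the 663 miRNA probes of the chip. Members were the probes whose name, without its species prefix, begins with miR-96, miR-182 or miR-183, whatever the letter or arm, which gave 2 miR-96, 5 miR-182 and 5 miR-183 probes. The cluster itself was picked on earlier male minus female differences of the same arrays, so its differences are given here as a description. The arrays carried gonad RNA of Amur sturgeon (Acipenser schrenckii) in Cy3, one array for 1 female and one for 1 male fish. Both fish were 11 months old, labelled as normal and as early in sex differentiation. No treatment or genetic change is labelled for either. Each probe was spotted 5 times per array, and any ± below is the SD over these 5 repeat spots, which is technical. A single fish and array stand for each sex, so the sexes could not be tested against each other and no p-value is printed.

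The members of this cluster are transcribed together as 1 precursor in vertebrates. They are best known from ciliated sensory cells, such as the hair cells of the inner ear and lateral line, photoreceptors and olfactory cells, and changes in the miR-96 seed cause hearing loss in mouse and human. In gonads the cluster has been described in male germ cells of the mouse and in granulosa cells of cattle. A miRNA finds its targets mainly through its seed, bases 2 to 8 from the 5′ end, and from 1 hairpin both a 5p and a 3p arm can be cut, of which the 5p arm is the usual product for these miRNAs.

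The sequences below are the targets that the probes were built to capture, as the array files give them. They are shown because the comparison of the miRNAs turns on which probes share a seed and which differ by a base. Each is written 5′ to 3′ with bases 2 to 8 in capitals.
dre-miR-96: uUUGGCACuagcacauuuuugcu
hhi-miR-96: uUUGGCACuagcacuauuuuugcu
dre-miR-182-5p: uUUGGCAAugguagaacucaca
hhi-miR-182: uUUGGCAAugguagaacucacacug
dre-miR-183: uAUGGCACugguagaauucacug
ipu-miR-183: aUGGCACUgguagaauucacug
ola-miR-183-5p: aUGGCACUgguagaauuca
dre-miR-182-3p: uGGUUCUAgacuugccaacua
ola-miR-183-3p: gUGAAUUAccauagggccaua

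The probes were designed for other fishes (dre zebrafish, hhi Atlantic halibut, ipu channel catfish, ola Japanese killifish, ccr common carp), and a signal does not show that the sturgeon miRNA has the same letters throughout. Positions in the sturgeon genome were not analysed here. The remaining members were ccr-miR-182-5p, which is 23 bases long against 22 for dre-miR-182-5p, hhi-miR-183, which holds dre-miR-183 whole in 24 bases, and ccr-miR-182-3p, which holds dre-miR-182-3p whole in 22 bases. The 3 miR-182 probes of the 5p arm hold each other whole and share the seed UUGGCAA, while the miR-96 probes share UUGGCAC. dre-miR-183 and hhi-miR-183 have the seed AUGGCAC. ipu-miR-183 and ola-miR-183-5p lack the first base of dre-miR-183, so their bases 2 to 8 read UGGCACU. The miR-96 targets differ from each other by 1 edit, a base that hhi-miR-96 has in excess. The dre-miR-96 target is listed for 5 fishes (zebrafish, common carp, channel catfish, fugu and Tetraodon pufferfish), and the hhi-miR-96 target for 1. Joined by near-identity, the 12 probes thus stand for 5 targets, and probes of 1 target are not independent. The targets of dre-miR-182-5p and dre-miR-183 differed by 4 edits at their best overlap. The short target of ola-miR-183-5p was closer, at 3 edits from each miR-182 target of the 5p arm. Whether probes of miR-182 and miR-183 share signal was not tested. Of the 651 other probes, 0 shared bases 2 to 8 with a member and 0 came within 4 edits of one, so no relative outside the cluster could be set beside these values.

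Across the chip, the female array detected 476 probes and the male array 430, with 490 on at least one. Detection asked for at least 3 of the 5 spots above the 95th percentile of the empty spots of that array, which put the female limit at 103 and the male limit at 113. Over the 490 probes the male array was the brighter one before normalization, with a median difference of 0.37 (log2). All differences after quantile normalization, which gives both arrays 1 distribution, are relative to such a shift. The labelled tissue was checked against miR-202, a miRNA of vertebrate gonads, of which 1 of 3 probes was detected on each array. After normalization that probe, ipu-miR-202, read 6.68 on the female array, with 4 of 5 spots over the limit. On the male array it read 8.58, with all 5 spots over the limit. The female value is as low as those of the 3p arms below, so the check is weak for the female array.

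The 5p arms of miR-96, miR-182 and miR-183 were present in both gonads, with all 9 probes detected on both arrays and every spot above its limit. Without normalization, 8 of them differed between male and female by -0.16 to 0.13 on the log2 scale, and dre-miR-96 by 0.53, where the chip's median was 0.37. After normalization the 9 probes lay on the female side, with a median male minus female difference of -0.63 on the log2 scale (range -0.95 to -0.15), against -0.059 for all 490 detected probes. Their median was above 0 without normalization and with levelling by the chip's P control probes. With the 3p arms, all 12 members were below 0, as were 55.9% of the detected probes. Of the 3p probes, dre-miR-182-3p and ola-miR-183-3p counted as detected through the female array alone. The other, ccr-miR-182-3p, differed by -0.0061, so the 3p arms add little to this count. None of the 12 members passed the rule for a difference, which asks for at least 1 on the log2 scale (2-fold), detection in the brighter array and no overlap between the spots of the arrays. Of all 490 detected probes, 6.33% passed it, 4.69% with the male and 1.63% with the female higher. In a whole gonad, fewer cells that hold a miRNA and less of it per cell cannot be told apart.

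miR-96 is the member whose seed is altered in inherited deafness, and its probes gave different readings. dre-miR-96 had female spots of 215.06, 183.36, 185.81, 186.28 and 198.66 and male spots of 289.68, 288.73, 285.72, 236.99 and 279.83. Every male spot lay above every female spot, and without normalization the probe was 1.45-fold brighter on the male array (0.53 on the log2 scale). Its normalized values were 7.83 ± 0.10 (female) and 7.68 ± 0.13 (male), a difference of -0.15 with overlapping spots. With the detection limit at the 99th percentile of empty spots it was detected on the male array only, by all 5 male and 0 female spots. That limit was 237.56 on the female array and 182.47 on the male array. Every female spot of the probe lay above the male limit, so this detection also rests on the unequal limits.

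hhi-miR-96 had female spots of 627.43, 577.28, 445.46, 557.04 and 611.34 and male spots of 703.34, 608.06, 611.65, 577.60 and 569.87. Here the arrays overlapped, and 4 of 5 spots were higher on the male array at the same place on the chip. The unnormalized difference was 0.13 and the normalized one -0.47, from 9.33 ± 0.20 in the female and 8.87 ± 0.12 in the male. The difference of dre-miR-96 thus exceeded that of hhi-miR-96 by 0.32, and by 0.21 to 0.61 over all 17 settings tried, the reported one included. The chip thus gives no single value for miR-96. The targets of these probes are apart by a single edit. With all spots kept, dre-miR-182-5p also lay 0.32 from ccr-miR-182-5p and from hhi-miR-182, whose targets hold its own whole. That gap leaned on a low male spot of dre-miR-182-5p, given below. Without spots over 0.5 on the log2 scale from the median of their probe, dre-miR-182-5p stood at -0.81 against -0.64 for each of the others. The miR-96 gap was then 0.27. Whether the edit accounts for the miR-96 gap was not tested.

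miR-182, whose seed is close to that of miR-96, was read by 3 probes of the 5p arm. hhi-miR-182 had female spots of 367.33, 297.39, 328.77, 328.31 and 329.76 and male spots of 426.20, 345.99, 322.32, 320.02 and 349.56. The arrays overlapped, and 3 of 5 male spots were the higher ones. Its normalized values were 8.70 ± 0.11 (female) and 8.08 ± 0.18 (male), a difference of -0.63.

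ccr-miR-182-5p had female spots of 377.85, 331.31, 306.37, 329.10 and 335.91 and male spots of 312.70, 377.71, 335.31, 367.92 and 401.27. The spots overlapped with 4 of 5 higher in the male, and the probe differed by -0.63 as well (8.75 ± 0.11 and 8.11 ± 0.15). Its lowest male spot, 312.70, had a pixel SD of 38.0% of its intensity. That spot was not among those left out below as far from their probe's median. dre-miR-182-5p had the most negative difference of the cluster, -0.95 (8.58 ± 0.14 and 7.63 ± 0.42). Its female spots were 290.51, 279.82, 276.88, 297.41 and 347.55, and its male spots 173.00, 338.78, 301.67, 321.51 and 251.79. The lowest male spot, 173.00, had a pixel SD of 34.4% of its intensity, against a median of 6.95% over the members' male spots. The male spot of 251.79 also lay below every female spot, with a pixel SD of 6.6% of its intensity. Without spots over 0.5 on the log2 scale from the median of their probe, dre-miR-182-5p differed by -0.81. Of the 3 probes it was the only one below 0 without normalization (-0.16), while hhi-miR-182 stood at 0.085 and ccr-miR-182-5p at 0.088. That sign rested on the lowest spot, since without it the unnormalized difference was 0.011.

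miR-183 was read by 4 probes of the 5p arm, of 19 to 24 bases, and their differences lay close together. ipu-miR-183 had female spots of 324.38, 313.18, 302.17, 259.81 and 304.40 and male spots of 363.54, 329.55, 287.28, 278.53 and 292.59. Neither array stood above the other, and the normalized values were 8.59 ± 0.13 and 7.84 ± 0.17 (difference -0.75). hhi-miR-183, with female spots of 331.60, 258.16, 283.11, 296.21 and 292.81 and male spots of 361.77, 295.75, 260.33, 275.73 and 316.25, differed by -0.75 too.

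dre-miR-183 had female spots of 304.62, 257.22, 281.31, 259.32 and 306.62 and male spots of 339.31, 307.76, 193.91, 298.07 and 315.95, and differed by -0.76. One male spot was low, with a pixel SD of 37.7% of its intensity, and without such spots the difference was -0.61. The shortest target, ola-miR-183-5p, differed by -0.62 (8.39 ± 0.11 and 7.77 ± 0.09), from female spots of 302.71, 255.27, 253.92, 279.66 and 274.55 and male spots of 314.53, 281.92, 276.06, 282.79 and 304.95. All 5 of its male spots were above the female spot at the same place. The probes without the first base of the target, or without its last bases, thus had differences of the same sign as the longer ones. Without normalization all 4 were above 0 (0.013 to 0.092). The shared sign thus changes with the levelling of the arrays and does not tell whether the ends of the target matter.

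Side by side, the median differences were -0.31 for miR-96 (2 probes), -0.63 for the 5p arm of miR-182 (3 probes) and -0.75 for that of miR-183 (4 probes). The distance between miR-182 and miR-183 is within the spread of the miR-182 probes, which ran from -0.95 to -0.63, and miR-96 spans -0.47 to -0.15. After normalization the spots of 7 of the 9 probes, all of miR-182 and miR-183, did not overlap between the arrays, with the female higher in each. Over the 490 detected probes, 23.7% had such a separation with the female higher. Before normalization the spots of 1 of the 9 probes were apart, those of dre-miR-96, with the male higher, where 52.4% of the 490 detected probes were so.

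The sign of the members' difference changed with the levelling of the arrays. Without normalization 8 of the 9 probes of the 5p arm lay above 0 and the median of the 9 was 0.085. Levelling by the control probes with P in their names, an alternative, put that median at 0.42, beside 0.70 for all 490 probes, and cyclic loess put it at -0.35, beside 0.022. Quantile normalization lowered their differences by 0.59 to 0.79, where the median lowering over all 490 probes was 0.54 (log2), and it moved the 3 probes of 3p arms by -0.052 to 0.050. Measured against the median of all detected probes in the same setting, the median of the 9 probes was lower by between 0.28 and 0.76 in each of the 17 settings. Of these settings 4 shift all probes alike and so give 1 value (0.28) by construction, which leaves 14 that can differ, all from the same 2 arrays. dre-miR-96 was at or above the chip's median in those 4 and in 2 others, and 0 of the other 8 probes were so in any.

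The authors' deposited table, which comes from the same arrays and is not independent, holds lower male values for all 9 probes. Its male over female ratio was 0.498 to 0.588 for 8 of them and 0.863 for dre-miR-96. For hhi-miR-96 the authors' deposited table has 641.23 in the female and 376.90 in the male, where the scanner medians were 577.28 and 608.06. How the authors went from the scanner values to that table is not stated in the labels or headers.

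The 3p arms gave little or no signal in either gonad. The scanner values of the 3 probes ran from 92.41 to 147.95 over both arrays, around limits of 103 and 113. ccr-miR-182-3p had female spots of 122.05, 105.46, 108.49, 104.97 and 107.40 and male spots of 112.52, 118.56, 113.46, 100.89 and 113.60. It was detected on both arrays, by 5 female and 3 male spots, and differed by -0.0061 (6.57 ± 0.10 and 6.57 ± 0.10).

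dre-miR-182-3p was detected on the female array only, with 3 spots over the limit against 0 in the male, at 6.46 ± 0.12 and 6.42 ± 0.08. ola-miR-183-3p had 4 female spots and 1 male spot over the limit, at 6.70 ± 0.25 and 6.51 ± 0.14. The spots of both probes overlapped between the arrays, and no fold is given for either. The differences of the 3p arms moved with the scaling as well, from -0.60 to 0.33 for ccr-miR-182-3p, from -0.69 to 0.24 for dre-miR-182-3p and from -0.74 to 0.19 for ola-miR-183-3p over the settings tried. The median empty spot read 86.7 for the female and 80.5 for the male, so the female limit was the closer one to background. With the limit at the 99th percentile of empty spots none of the 3 was detected on either array. No comparison of arms between the sexes could therefore be made, and the lack of signal bounds only what these probes read.

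Other miRNAs of the cell types in which the cluster is known were set beside it as counts. Of 25 probes for neural and sensory miRNAs (miR-9, miR-124, miR-128, miR-138, miR-153 and miR-204), 14 were detected, 0 passed the rule in either direction and the median difference was -0.070. Among the 14, the 3 detected miR-124 probes, dre-miR-9-5p and tni-miR-204b counted through the female array alone. They read 6.47 to 6.60 there, as low as the 3p arms, and differed by -0.18 to 0.034. The list's median thus rests in part on probes near background. The most intense probe of this list, ola-miR-128, read 11.13 ± 0.06 and 11.24 ± 0.09. Of 22 epithelial probes (miR-200, miR-141, miR-429, miR-203 and miR-205), 21 were detected, 0 passed and the median was -0.074, with ipu-miR-205 at 13.99 ± 0.31 and 13.80 ± 0.12.

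Of 8 neuroendocrine probes (miR-7 and miR-375), 6 were detected and all lay below 0 with a median of -0.54, beside the -0.63 of the cluster's 9 probes. One of them, ola-miR-7, passed with the female higher (-1.05), or differed by -0.81 and did not pass without spots far from their probe's median, and ipu-miR-375 differed by -0.55. Without normalization that list's median was 0.085, beside 0.085 for the cluster's 9 probes. In the same setting the epithelial list stood at 0.12, the neural and sensory list at 0.12 and the gonad list, given next, at 2.10. By these unnormalized medians the nearness to the cluster is not particular to the neuroendocrine list. After normalization it is, since the epithelial (-0.074) and neural and sensory (-0.070) medians lay further from the cluster's -0.63. Signal levels differ between the lists. Normalization took ipu-miR-205, the brightest epithelial probe, from 0.13 to -0.19, where the cluster's 9 probes were lowered by 0.59 to 0.79. The neural and sensory median mixes dim and bright probes. Without normalization ola-miR-124-3p, detected on the female array only, stood at -0.080 and ola-miR-128 at 0.60. How far signal level sets these medians was not tested. Of 9 gonad probes (miR-202, miR-34 and miR-449), 6 were detected, 4 passed with the male higher and the median was 1.63, with ipu-miR-34b at 1.73. Of these 4, dre-miR-34c was detected on the male array only. Whether any of these cell types moved with the cluster's values was not tested.

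With 2 arrays, a pattern is no more than 1 difference. The detected probes nearest in difference to hhi-miR-96, the member with the highest mean signal, were ola-miR-1388-3p (-0.47), pol-let-7d-3p (-0.46) and dre-miR-140-3p (-0.45), with gaps of 0.0060, 0.0067 and 0.012 on the log2 scale. Counting hhi-miR-96 itself, 24 of the 490 probes lay within 0.05 of its difference, so this likeness is common on the chip.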

How the data were processed

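The 2 arrays were used, 1 female and 1 male gonad, grouped by the sex in the labels. Per the labels, small RNAs were isolated by size, given a poly(A) tail and a ligated tag, and stained with Cy3; per the series' design text each fish gave 4 to 8 µg of total RNA. Per the file headers, the scanner files hold a Cy3 intensity (median over pixels) and its SD over pixels for 3968 spots, 361 of them empty, not corrected for background. The authors also deposited a table with a linear intensity for each probe, made by a method not given in the sources used here.

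In R 4.3.3 with limma 3.58.1, intensities were corrected by normexp (offset 50, all spots), reduced to the mean log2 value of 5 spots and quantile normalized over 663 probes (summaries in Python 3.11.15, pandas 2.3.3). The offset shrinks differences of dim probes. The rule for a difference was tested on simulated data. The members, lists and alternatives were chosen with earlier results of these data known. Named were all members, the 3 probes nearest in difference to the member of highest signal, and the most intense probe of each list. The probes ola-miR-7, dre-miR-34c, dre-miR-9-5p and tni-miR-204b, and those of miR-124 and miR-202, were named after their values were seen. Scaling to control probes with P in their names, and leaving out spots far from their probe's median, were added after seeing the data. The number of arrays limits the precision.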

Additional observations from a re-analysis of the deposited data

How the results depend on the processing

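The number of members past the rule was 0 as reported. It was 3 with plain background subtraction (dre-miR-182-5p, dre-miR-183 and hhi-miR-183), 1 with offset 16 (dre-miR-182-5p) and 7 with a size limit of 1.5-fold, each with the female higher. Among these, dre-miR-182-5p and dre-miR-183 are the members with a male spot far below their probe's median (173.00 and 193.91). Plain subtraction and offset 16 were not run without those spots. Over all 490 detected probes the female-higher share, 1.63% as reported, was 6.73%, 3.06% and 7.76% in these settings. It ran from 0 to 1 when repeat spot 1, 2, 3, 4 or 5 was left out, the 1 being dre-miR-182-5p, beside 1.63% to 2.24% of all probes, and was 0 in the other settings. The median over the 12 members (-0.62) was -0.35 with cyclic loess, 0.033 without normalization and 0.37 when set level by the P control probes, and ran from -0.67 to -0.58 with a repeat spot left out. In the same 3 settings miR-96 (-0.31) was -0.080, 0.33 and 0.66, the 5p arm of miR-182 (-0.63) was -0.35, 0.085 and 0.42, and that of miR-183 (-0.75) was -0.35, 0.033 and 0.37. Leaving out a repeat spot gave -0.39 to -0.26 for miR-96, -0.69 to -0.63 for miR-182 and -0.79 to -0.68 for miR-183. miR-183 was also -0.52 with the 75th percentile of all probes and -1.003 with plain subtraction. With only the brightest probe of each of the 5 targets kept, the median was -0.47, which is the value of hhi-miR-96. The kept probes include ccr-miR-182-3p and ola-miR-183-3p, both near background. With the limit at the 99th percentile, the female array detected 8 members and the male array 9. The sign thus depends on the scaling; which scaling is nearer to the truth was not tested. No paired analysis was possible because each sex has 1 array.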
